A study of Mus musculus with 9 samples.

Results

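The 9 genes described here encode the scaffold of the excitatory postsynaptic density and its main kinase: Dlg2, Dlg4, Dlgap1, Homer1, Shank1, Shank2 and Shank3, and the CaMKII subunits Camk2a and Camk2b. They were taken as a named list, chosen with earlier results of these data known. All 9 of 9 had a probe set with 1 gene symbol, of 22180 genes on the arrays with such a probe set. Each gene was represented by its probe set with the highest mean. Levels are log2 values made by the authors with RMA, in which 1 unit is a factor of 2.

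RNA came from 3 kinds of culture of embryonic cortex of wild-type CD1 mice, with 3 arrays each, which the labels call biological replicates. The neurons were from E16 embryos (embryonic day 16) and spent 5 days in culture by the total the labels give, which in another place name 4. The precursors were from E13 embryos and spent 1 day in culture. For the co-culture, E13 precursors joined E16 neurons that had already been cultured for 4 days, and both grew together for 1 more day, so its RNA is that of both cell populations. Neurons and precursors thus differed in embryonic age and in time in culture as well as in cell type, and these cannot be told apart. In such bulk RNA, fewer cells of a type and less RNA per cell cannot be told apart either.

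At an excitatory synapse, proteins of the Dlg family bind receptor tails and ion channels through PDZ domains at the membrane. Dlgap proteins bind the Dlg proteins on one side and the PDZ domain of Shank proteins on the other, and Shank proteins are tied through Homer to metabotropic glutamate receptors and to stores of calcium. CaMKII, built of alpha and beta subunits in forebrain neurons, is switched on by calcium and calmodulin and is known for its part in synaptic plasticity. Cortical neurons are known to build up this apparatus as synapses form.

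All 9 genes were higher in neurons than in precursors, by 1.52-fold (Shank2) to 4.96-fold (Dlg2), and all 9 were lower in the co-culture than in neurons. In the co-culture, 7 of the 9 were higher than in precursors alone, by 1.18-fold (Shank3) to 1.85-fold (Dlg2), and the other two, Dlg4 and Shank2, did not pass the test. A gene counted as called at an adjusted p under 0.05 in limma, adjusted over all 13012 genes tested. Among these, 28.0% were called higher in neurons than in precursors, 24.9% were called lower in the co-culture than in neurons, and 8.22% were called higher in the co-culture than in precursors. The order neurons over co-culture over precursors, with all 3 tests passed, was found for 7 of the 9 genes and for 8.02% of the genes tested. On all 9 genes the arrays of each group did not overlap with those of either other group. Over all genes tested, 29.5% had neuron arrays all above the precursor arrays, 19.4% had co-culture arrays all above the precursor arrays and 27.3% had co-culture arrays all below the neuron arrays. The median log2 difference between neurons and precursors was 1.33 over the 9 genes and -0.02 over all genes tested. For co-culture minus precursors these medians were 0.43 and 0.02, and for co-culture minus neurons -0.85 and 0.03. As the list was chosen with earlier results known, these contrasts describe the 9 genes and test no wider class.

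**Figure D1:**
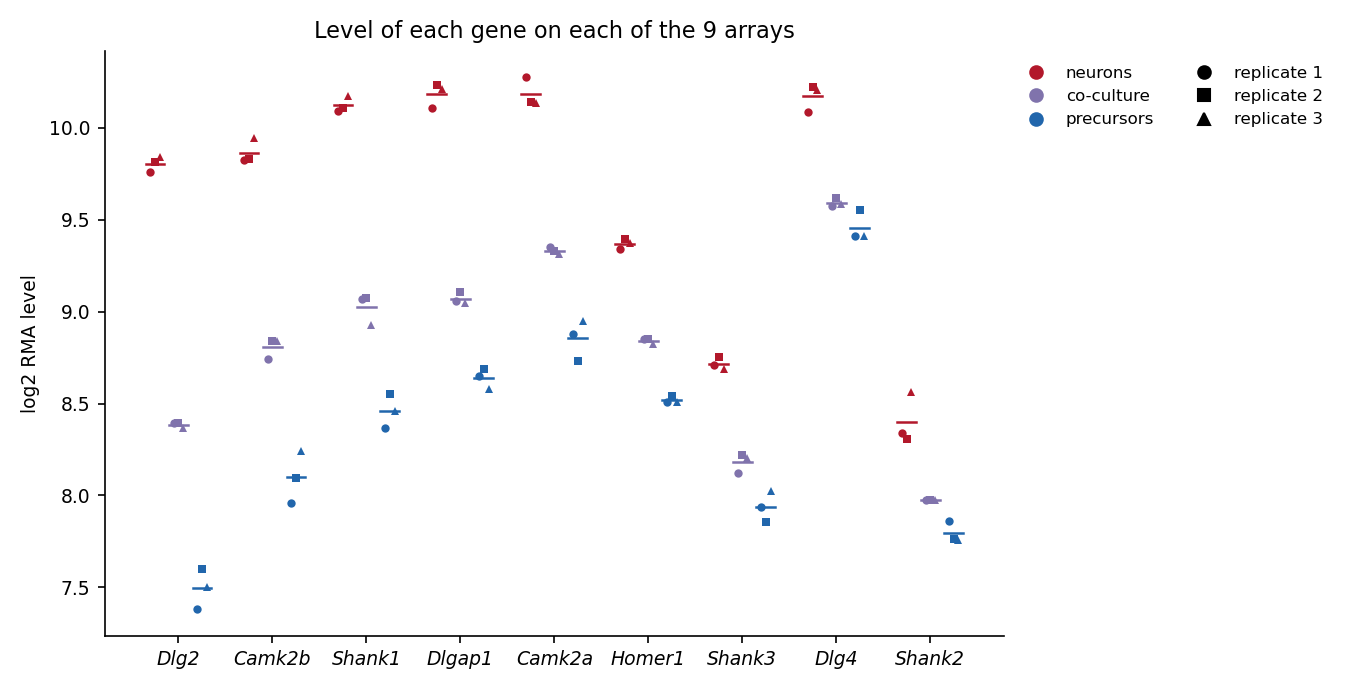
Log2 RMA level (vertical axis) of each gene on each array, with genes in order of their difference between neurons and precursors. Points are single arrays, shapes are replicate numbers and bars are means of 3 arrays. For every gene the neuron arrays lay above the co-culture arrays, and these above the precursor arrays.

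**Figure D2:**
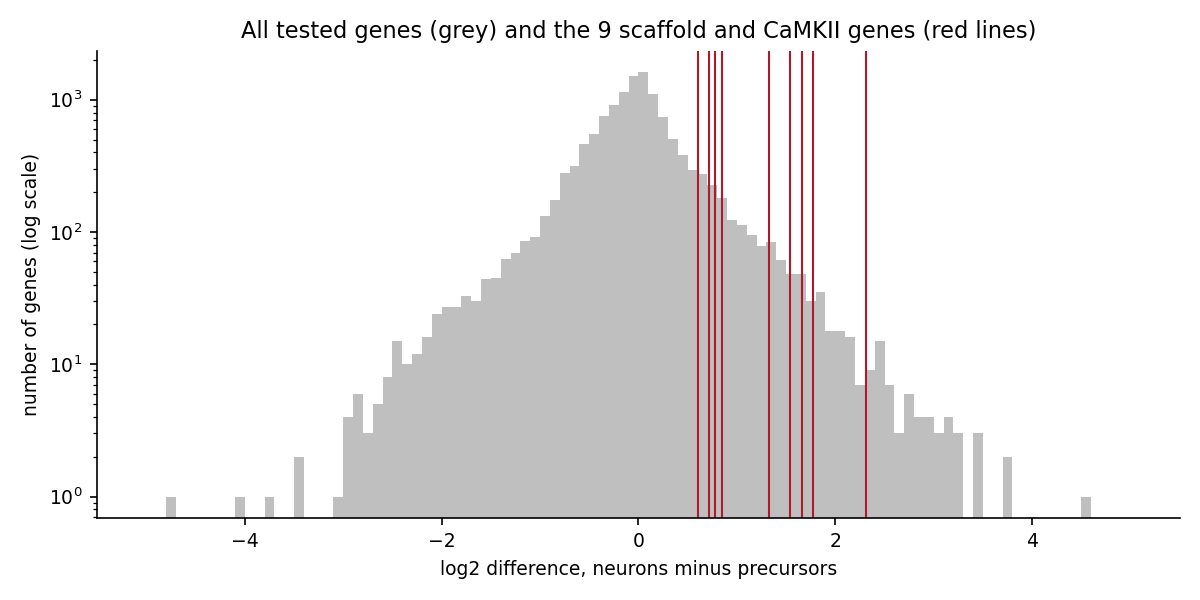
Number of genes (vertical axis, log scale) by log2 difference between neurons and precursors (horizontal axis) for the 13012 genes tested, in bins of equal width. The red lines mark the 9 genes, which lie between 0.61 and 2.31, to the right of the bulk of the genes.

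The cultures were checked against marker genes. Of 7 precursor markers, among them Sox2 and Mki67, all 7 were lower in neurons than in precursors. Of 7 neuron markers, 5 were higher in neurons, with Snap25 at a log2 difference of 1.30 and Syt1 at 1.45. The vesicular glutamate transporter gene Slc17a6 was lower (-0.58), and the neuronal tubulin gene Tubb3 did not pass the test, with mean levels of 11.95 in neurons and 11.96 in precursors. RNA of a gene of young neurons was thus abundant in the precursor cultures too. The precursor marker list had a log2 summed level of 12.52 to 12.68 in neurons, of 13.65 to 13.77 in precursors and of 13.61 to 13.70 in the co-culture, and the neuron marker list 14.23 to 14.28, 13.61 to 13.65 and 13.80 to 13.83. Of 6 GABAergic interneuron markers 4 were higher and 2 lower in neurons, with Sst at 1.40 and Dlx2 at -0.80. Of 6 microglia and macrophage markers 2 passed the filter on dim genes, and Csf1r, Itgam, Tmem119 and P2ry12 were below it. Aif1 was higher in neurons at 0.41, and Cx3cr1 differed by 0.02, which did not pass (adjusted p = 0.851, limma). Aif1 passed the filter through its neuron arrays only (mean 6.91), which favoured a rise there. Its precursor mean of 6.50 and co-culture mean of 6.49 lay below the array medians, 6.75 to 6.79. Of 5 astrocyte markers 2 passed the filter, and they went opposite ways: Aldoc was lower in neurons than in precursors at -1.78 (adjusted p = 3.75e-07, limma) and Aldh1l1 was higher at 0.33 (adjusted p = 0.0138), though not without precursor replicate 2 (0.0547) or 3 (0.0552), while Gfap, Aqp4 and S100b were below the filter. The log2 summed level of the astrocyte list was 9.69 to 9.93 in neurons, 10.87 to 11.04 in precursors and 10.86 to 10.95 in the co-culture. Aldoc weighed most in that sum, so its differences mainly follow this 1 gene. Mean levels in neurons, precursors and co-culture were 8.86, 10.64 and 10.58 for Aldoc, and 7.58, 7.24 and 7.56 for Aldh1l1.

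Markers of vessel cells also differed with the groups. Of 4 endothelial markers 3 were tested, and all 3 were lower in neurons than in precursors: Cdh5 (-1.21), Flt1 (-0.51) and Pecam1 (-0.34). All 3 were higher in the co-culture than in neurons, with Cdh5 at 1.37. Over all genes tested, 35.2% were called lower in neurons than in precursors and 35.7% higher in the co-culture than in neurons. Flt1 and Pecam1 passed the filter on dim genes through precursor and co-culture arrays only, which favoured lower levels in neurons. Their neuron means, 6.40 and 6.60, lay below the array medians, 6.75 to 6.79. The summed level of that list was 8.59 to 8.66 in neurons, 9.23 to 9.34 in precursors and 9.23 to 9.53 in the co-culture. Of 5 mural cell and fibroblast markers 4 were tested and 1, Pdgfrb, was lower in neurons (-0.36). Of 6 oligodendrocyte lineage markers 4 were tested and 1, Olig2, was lower (-0.30, adjusted p = 0.0339, limma), a call that was lost without neuron replicate 1 or 3 or precursor replicate 1 or 3 (0.0670 to 0.0964), without the filter on dim genes (0.0572) and under 3 other settings. The part of these other cells in the levels of the 9 genes was not tested.

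Dlg2 and Dlg4 encode PSD-93 and PSD-95, scaffold proteins that hold glutamate receptors and potassium channels at the postsynaptic membrane. Dlg2 (probe set 17480143) was at log2 levels of 9.76, 9.82 and 9.84 in neurons, 7.38, 7.60 and 7.50 in precursors, and 8.39, 8.39 and 8.37 in the co-culture. Its neuron arrays lay more than 2 log2 units above its precursor arrays. The co-culture arrays stood between them with little spread, though 2 of their 3 values were equal. The log2 difference between neurons and precursors was 2.31 (SE 0.058, adjusted p = 1.83e-09, limma), that between co-culture and precursors 0.89 (adjusted p = 1.33e-05) and that between co-culture and neurons -1.42 (adjusted p = 7.60e-08). Of the 13012 genes tested, 99.5% had a smaller difference between neurons and precursors than Dlg2.

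Dlg4 (probe set 17251900) was at 10.09, 10.22 and 10.21 in neurons, 9.41, 9.55 and 9.41 in precursors, and 9.58, 9.62 and 9.59 in the co-culture. Its co-culture arrays lay just above the highest precursor array, precursor replicate 2. It was 1.64-fold higher in neurons than in precursors (log2 difference 0.72, SE 0.056, adjusted p = 2.35e-06, limma). The log2 difference between co-culture and precursors, 0.14 (95% confidence interval 0.01 to 0.26), did not pass after adjustment (adjusted p = 0.234), while Dlg4 fell by 0.58 from neurons to the co-culture (adjusted p = 1.40e-05). The 95% interval of the neuron to precursor difference was 0.59 to 0.84 for Dlg4 and 2.18 to 2.44 for Dlg2. The measured rises of the paired scaffold genes thus differed by more than the error between arrays. How strongly each probe set responds is not in these intervals.

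Dlgap1 encodes GKAP, the adaptor between the Dlg and Shank layers. Dlgap1 (probe set 17339357) was at 10.11, 10.24 and 10.21 in neurons, 8.65, 8.69 and 8.58 in precursors, and 9.06, 9.11 and 9.05 in the co-culture. The co-culture arrays lay nearer to the precursors than to the neurons on the log2 scale. It was 2.91-fold higher in neurons than in precursors (log2 difference 1.54, SE 0.050, adjusted p = 7.04e-09, limma) and 1.35-fold higher in the co-culture than in precursors (adjusted p = 5.35e-04). From neurons to the co-culture it fell by 1.11 on the log2 scale (adjusted p = 1.19e-07).

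The Shank genes encode the large scaffold proteins of the deeper layer of the density. Shank1 (probe set 17477428) was at 10.09, 10.11 and 10.17 in neurons, 8.37, 8.55 and 8.46 in precursors, and 9.07, 9.08 and 8.93 in the co-culture. Co-culture replicate 3 was the lowest of its group and still lay above every precursor array. Shank1 was 3.17-fold higher in neurons than in precursors (log2 difference 1.66, SE 0.061, adjusted p = 1.46e-08, limma) and 1.48-fold higher in the co-culture than in precursors (adjusted p = 3.26e-04), and it fell by 1.10 from neurons to the co-culture (adjusted p = 3.95e-07).

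Shank2 (probe set 17485389) was at 8.34, 8.31 and 8.56 in neurons, 7.86, 7.77 and 7.76 in precursors, and 7.97 on all 3 co-culture arrays. Neuron replicate 3 stood above the other neuron arrays. The co-culture values were the same to 6 decimals, as they were for 1.26% of the genes tested, and Camk2b, Dlg2 and Homer1 had 2 equal values of 3 in the co-culture, as had 10.3% of the genes, so the SDs of these groups rest on fewer distinct values. Shank2 was 1.52-fold higher in neurons than in precursors (log2 difference 0.61, SE 0.067, adjusted p = 2.60e-05, limma). It differed by 0.18 between co-culture and precursors (95% confidence interval 0.03 to 0.33), which did not pass (adjusted p = 0.171). It passed without neuron replicate 3 (adjusted p = 0.0391) and when only co-culture and precursor arrays were fitted (0.0437). From neurons to the co-culture it fell by 0.43 (adjusted p = 3.57e-04).

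Shank3 (probe set 17314190) was at 8.71, 8.76 and 8.69 in neurons, 7.94, 7.86 and 8.02 in precursors, and 8.12, 8.22 and 8.20 in the co-culture. The lowest co-culture array, replicate 1, lay close to the highest precursor array, replicate 3. Shank3 was 1.71-fold higher in neurons than in precursors (log2 difference 0.78, SE 0.054, adjusted p = 9.54e-07, limma) and fell by 0.53 from neurons to the co-culture (adjusted p = 1.88e-05). Its difference between co-culture and precursors, 0.24 (adjusted p = 0.0205), was the least firm of the 7 that passed. It did not pass without precursor replicate 1 (adjusted p = 0.0591), precursor replicate 2 (0.0731), co-culture replicate 2 (0.0969) or co-culture replicate 3 (0.0757), nor without the filter on dim genes (0.0515) or with arrays centred on the median of the tested genes (0.0728), a scaling chosen after seeing the data. Shank3 is also the one gene of the 9 with a second probe set (17320553), with means of 6.82 (neurons), 6.69 (precursors) and 6.70 (co-culture), near the array median. There neurons and precursors differed by 0.14 and their arrays overlapped. With the mean of both probe sets the neuron to precursor difference was 0.46 (adjusted p = 1.95e-05), and the difference between co-culture and precursors was 0.13 (adjusted p = 0.182).

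Homer1 encodes the adaptor that links Shank to metabotropic glutamate receptors; a short form induced by activity, Homer1a, lacks the part that joins Homer proteins together, and the values here do not separate the forms. Homer1 (probe set 17289137) was at 9.34, 9.40 and 9.37 in neurons, 8.51, 8.54 and 8.51 in precursors, and 8.85, 8.85 and 8.83 in the co-culture. Its 3 groups were each tight, with SDs of 0.027, 0.020 and 0.014, though 2 of the 3 co-culture values were equal. It was 1.80-fold higher in neurons than in precursors (log2 difference 0.85, SE 0.039, adjusted p = 5.33e-08, limma) and 1.25-fold higher in the co-culture than in precursors (adjusted p = 6.18e-04), and it fell by 0.53 from neurons to the co-culture (adjusted p = 2.13e-06).

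Camk2a encodes the alpha subunit of CaMKII. Camk2a (probe set 17351001) was at 10.28, 10.14 and 10.14 in neurons, 8.88, 8.73 and 8.95 in precursors, and 9.35, 9.33 and 9.32 in the co-culture. The co-culture arrays agreed more closely (SD 0.020) than the precursor arrays (SD 0.11). Camk2a was 2.51-fold higher in neurons than in precursors (log2 difference 1.33, SE 0.063, adjusted p = 7.37e-08, limma) and 1.39-fold higher in the co-culture than in precursors (adjusted p = 0.00113), and it fell by 0.85 from neurons to the co-culture (adjusted p = 2.40e-06).

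Camk2b encodes the beta subunit, which also binds actin filaments. Camk2b (probe set 17260261) was at 9.82, 9.83 and 9.94 in neurons, 7.96, 8.09 and 8.24 in precursors, and 8.74, 8.84 and 8.84 in the co-culture. Its precursor arrays spread more widely (SD 0.14) than those of any other gene of the 9. Camk2b was 3.41-fold higher in neurons than in precursors (log2 difference 1.77, SE 0.072, adjusted p = 2.69e-08, limma) and 1.64-fold higher in the co-culture than in precursors (adjusted p = 2.31e-04), and it fell by 1.06 from neurons to the co-culture (adjusted p = 1.38e-06). The interval of the neuron to precursor difference was 1.61 to 1.93 for Camk2b and 1.19 to 1.47 for Camk2a. By the probe sets used, the measured difference was thus larger for the beta than for the alpha subunit gene.

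Set in order of the neuron to precursor difference, the 9 genes formed 3 runs in which the 95% confidence intervals of neighbours overlapped. Genes within a run could still differ. Camk2b (1.61 to 1.93) lay clear of Camk2a (1.19 to 1.47), and Homer1 (0.764 to 0.938) lay clear of Shank2 (0.458 to 0.759). Dlg2 stood alone, above Camk2b. Camk2b, Shank1, Dlgap1 and Camk2a followed, each with an interval that overlapped that of its neighbour. Below Camk2a (lower bound 1.19) came Homer1 (upper bound 0.94), Shank3, Dlg4 and Shank2, whose intervals overlapped from one to the next. Among the 3 Shank genes, the interval of Shank1 (1.53 to 1.80) lay clear of those of Shank3 (0.66 to 0.90) and Shank2 (0.46 to 0.76). These intervals hold the error between arrays for the probe set used, not how strongly each probe set responds. The probe sets of Shank3 itself gave 0.78 and 0.14. Whether the RNAs of these genes rose by different amounts was thus not tested.

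**Figure D3:**
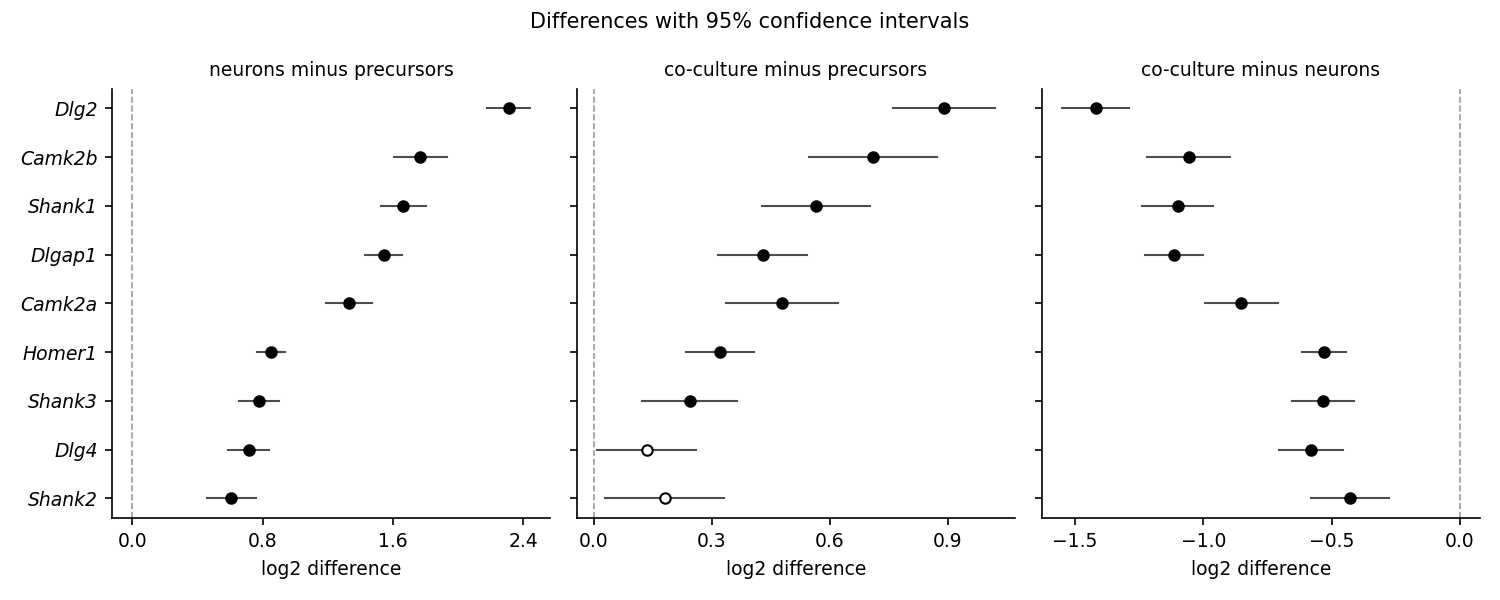
Log2 difference (horizontal axes) of each gene in the 3 comparisons, with the 95% confidence interval of the limma fit as a line. Filled points passed an adjusted p of 0.05; the open points, Dlg4 at 0.14 and Shank2 at 0.18, did not.

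In the co-culture, none of the 9 genes lay outside the range set by neurons and precursors (limma, 0 of 9 at an adjusted p under 0.05, and 0 of 9 at an unadjusted one-sided p under 0.05), and 0 of the 13012 genes tested did at the adjusted threshold. At the unadjusted threshold 141 of these genes lay above both cultures and 127 below. The place of the co-culture between the cultures was therefore expressed on the linear scale, as a percentage of the way from the precursor mean to the neuron mean, for genes called and at least 1.5-fold higher in neurons. The median over the 9 genes was 24.5% ± 1.05 (SD over the 3 co-culture arrays), and the median over all 1556 such genes was 23.4% ± 1.28. Homer1 lay farthest toward neurons, at 32.0%, 32.0% and 29.3% on the co-culture arrays. Dlg4 lay nearest to precursors, at 13.3%, 18.2% and 14.5%, and these arrays did not overlap with those of Homer1. Dlgap1, at 17.6%, 19.9% and 17.0%, also had its mean, though not every array, below the middle range of all such genes, which ran from 18.95% to 27.9% (lower to upper quartile). Camk2b (26.5%), Camk2a (26.0%), Shank3 (25.9%), Shank2 (25.4%), Shank1 (22.1%) and Dlg2 (21.6%) had means inside that range. Shank3 varied most, from 19.1% on replicate 1 to 30.4% on replicate 2. These percentages have no test, since all genes share the same co-culture arrays, and the error of the group means is not in the SD.

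**Figure D4:**
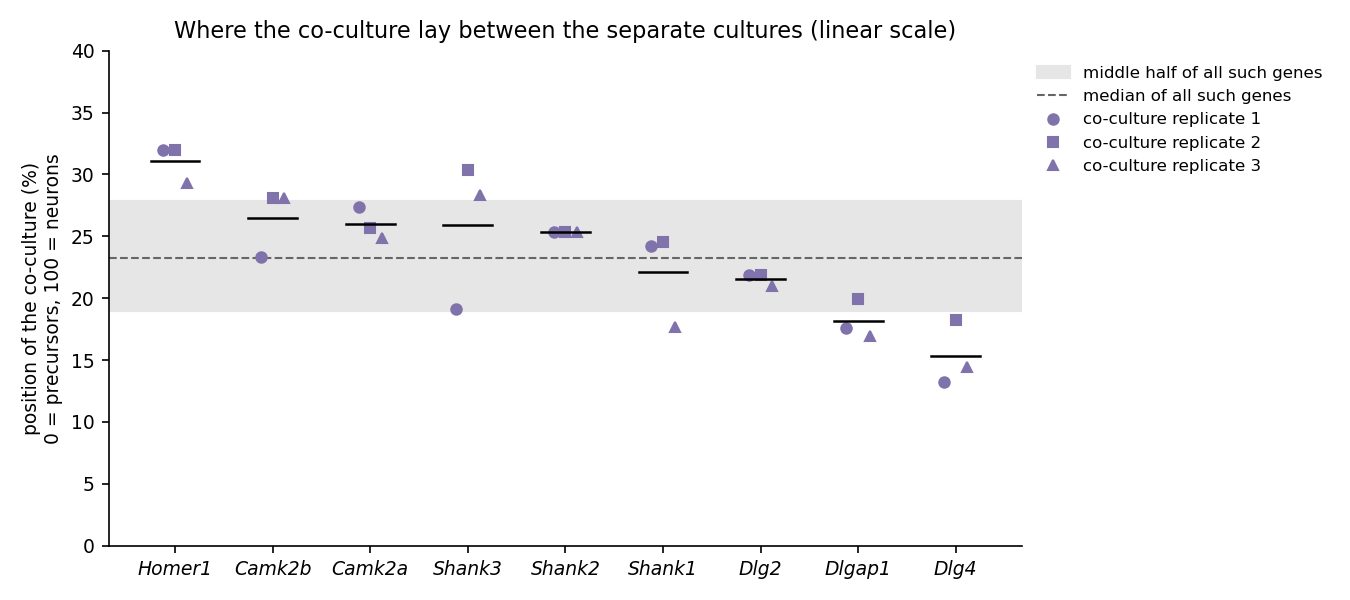
Position of the co-culture between precursors (0%) and neurons (100%) on the linear scale (vertical axis) for each gene. Points are the 3 co-culture arrays, bars their mean, and the grey band and broken line the middle range and median of the 1556 genes called and at least 1.5-fold higher in neurons; the mean of Homer1 lies above the band, those of Dlgap1 and Dlg4 below it.

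Paralogs of the 9 genes, which encode relatives of the same families, were compared next. The list held 9 paralogs and all 9 were tested; 5 were higher in neurons than in precursors, 3 were lower and 1 did not pass, with a median log2 difference of 0.26 against 1.33 for the 9 genes. Of all genes tested 28.0% were called higher in neurons than in precursors and 35.2% lower. The 3 of 9 paralogs that were lower are thus near the share of all genes. In the Dlg family, Dlg1, which encodes SAP97, was lower in neurons (-0.43, adjusted p = 4.74e-05, limma), and Dlg3, which encodes SAP102, was higher by 0.26 (adjusted p = 0.00139). In the Homer family, Homer3 was lower in neurons (-0.52, adjusted p = 5.41e-04) and Homer2 differed by -0.18, which did not pass (adjusted p = 0.0888) except without neuron replicate 3 (0.0447). Thus Homer1 and Homer3, and Dlg2 or Dlg4 and Dlg1, moved in opposite directions between the same cultures.

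Among the kinase genes, Camk2d, which encodes the delta subunit, was lower in neurons (-0.27, adjusted p = 2.55e-04, limma), and Camk2g, which encodes the gamma subunit, was higher by 0.48 (adjusted p = 1.76e-05). Camk2a and Camk2b differed by 1.33 and 1.77, so the 4 subunit genes of the kinase ranged from a fall to a more than 3-fold rise. Of the Dlgap paralogs on the list, Dlgap2 (0.95), Dlgap3 (0.85) and Dlgap4 (0.33) were higher in neurons, below Dlgap1 at 1.54. Dlgap5, a family member known for its part in mitosis that was not on the list and is named after its value was seen, was lower in neurons at -1.36 (adjusted p = 3.07e-06, limma). Between co-culture and precursors 0 of the 9 paralogs passed (limma, and 3 of 9 at an unadjusted p under 0.05), and Dlgap3 (0.21, adjusted p = 0.0840) passed with array weights (0.0282). Of all genes tested 8.22% were called higher in that comparison, so 0 of 9 is near the share of all genes. These directions between neurons and precursors were the same under each scaling of the arrays that was tried.

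**Figure D5:**
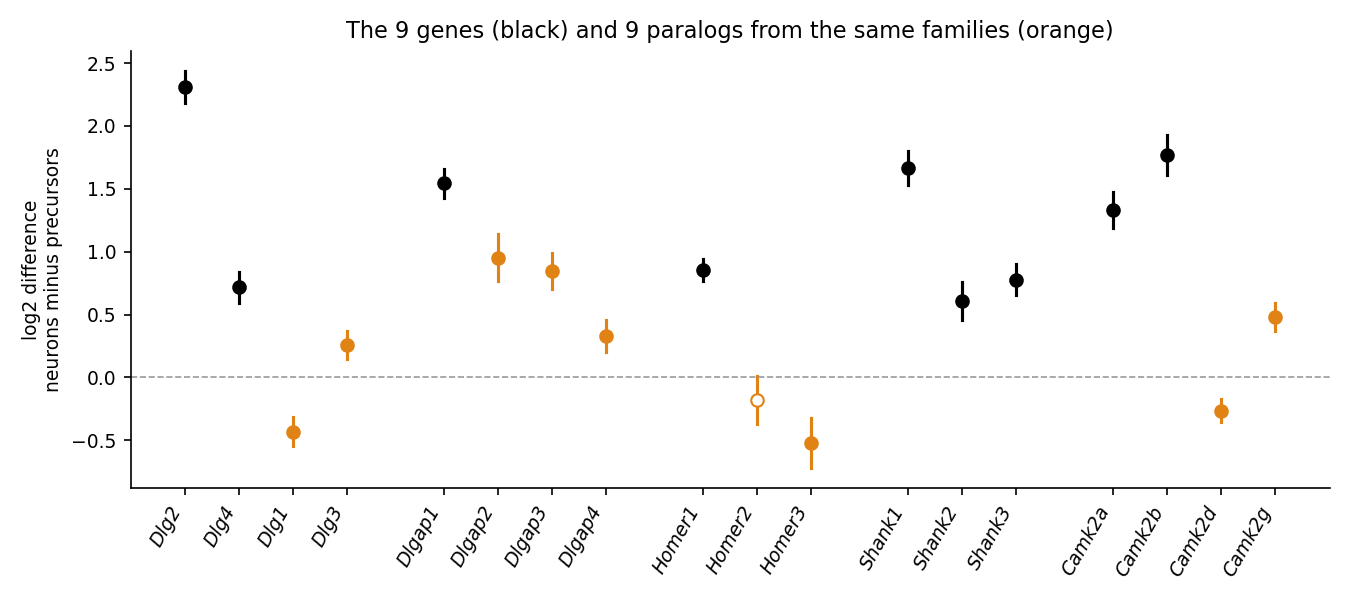
Log2 difference between neurons and precursors (vertical axis) with 95% confidence intervals for the 9 genes (black) and the 9 paralogs on the list (orange), grouped by family; filled points passed an adjusted p of 0.05. Dlg1, Homer3 and Camk2d lie below 0, while every black point lies above it.

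Further proteins of the postsynaptic density were covered by a list of 21 genes, of which 19 had a probe set and were tested. Of these 15 were higher in neurons, 2 lower and 2 did not pass, with a median of 0.39. Over all genes tested 28.0% were called higher and 35.2% lower. The largest rises were those of Frmpd4 (1.68), which encodes a PDZ protein that binds PSD-95, Cnksr2 (1.61), a scaffold of Ras signalling at the density, Nrgn (1.44), which encodes the calmodulin-binding protein neurogranin, and Tanc2 (1.24), another scaffold. Frmpd4 passed the filter on dim genes through its neuron arrays only, which favoured a rise in neurons. Its means of 5.96 in precursors and 6.69 in the co-culture lay below the array medians, 6.75 to 6.79. The genes that were lower were Tanc1 (-0.91) and Arc (-0.26), an immediate early gene of synaptic plasticity. Those that did not pass were Baiap2 (0.01, adjusted p = 0.891, limma) and Pick1 (0.12, adjusted p = 0.220). These 4 are named after their values were seen. Tanc1 passed the filter through its precursor and co-culture arrays only, which favoured a fall in neurons. Its neuron mean of 6.55 lay below the array medians. In the co-culture 6 of the 19 were higher than in precursors (9 at an unadjusted p under 0.05) and 0 lower by either measure (limma). Among the 6 were Frmpd4 (0.73), Cnksr2 (0.59) and Tanc2 (0.42). Over all genes tested 8.22% were called higher in that comparison. Nrgn was higher at 0.49 (adjusted p = 0.0390, limma) but did not pass without neuron replicate 1 (0.0620), without any 1 precursor array other than replicate 1, without any 1 co-culture array, without the filter on dim genes (0.0730) or with arrays centred on the median of the tested genes (0.0718).

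Of 14 genes of calmodulin, calmodulin kinases, their inhibitors and calcineurin, 9 were tested. All 9 were higher in neurons than in precursors, with a median of 0.41, led by Camk2n2 (1.17), which encodes an inhibitor of CaMKII, Camk1g (1.09), Camk4 (0.98) and Camk1d (0.59), which encode other kinases switched on by calmodulin. In the co-culture 2 of the 9, Camk2n2 (0.47) and Camk4 (0.32), were higher than in precursors, though Camk4 did not pass without co-culture replicate 2 (adjusted p = 0.0508, limma) or with the mean of its probe sets (0.0867). The inhibitory synapse was represented by 4 tested genes of 5, and all 4 were higher in neurons: Nlgn2 (1.19), the neuroligin of inhibitory synapses, Insyn2a (0.94), Gphn (0.35), which encodes the scaffold protein gephyrin, and Insyn1 (0.23). Nlgn2 (0.32) and Insyn2a (0.28) were also higher in the co-culture than in precursors. Over all genes tested, 28.0% were called higher in neurons than in precursors and 8.22% higher in the co-culture than in precursors.

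The genes with the pattern most like that of the 9 over the 9 arrays, by root mean square distance of centred log2 levels to the mean of the 9, were Scamp5 (0.031), Prkaa2 (0.035), 6430548M08Rik (0.037), Tanc2 (0.038) and Cacnb4 (0.038). Scamp5 encodes a membrane protein of secretory vesicles, Prkaa2 a catalytic subunit of AMP-activated kinase and Cacnb4 a calcium channel subunit. Scamp5 differed by 1.30 between neurons and precursors and by 0.43 between co-culture and precursors. Among the 9 genes themselves the closest pair was Homer1 and Shank3 (0.067), followed by Dlgap1 and Shank1 (0.085), and the most distant was Dlg2 and Shank2 (0.70).

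Since the 9 genes rose together in neurons, the sequences before their starts were set side by side, from the RefSeq promoter table for build GRCm38.p6. The table matched 6 of the 9 genes, Camk2b, Dlg2, Dlg4, Dlgap1, Homer1 and Shank3, with 12 starts, and the 250 bases before each start were searched on both strands for TGACG, the core of the cAMP response element bound by CREB, a factor known for activity-dependent transcription in neurons. The core was present in 2 of the 12 windows, 16.7%, and in 17.8% of all 32851 windows in the table. The windows shown are the pair with the core, in Homer1 and at the third start of Dlg4, and those of the genes with the largest differences, Camk2b and the first start of Dlg2. They run 5′ to 3′ on the gene's strand, with the core in capitals, at chr13:93303507-93303756 (plus strand) for Homer1, chr11:70023732-70023981 (plus strand) for Dlg4, chr11:6065749-6065998 (minus strand) for Camk2b and chr7:91090536-91090785 (plus strand) for Dlg2.
Homer1: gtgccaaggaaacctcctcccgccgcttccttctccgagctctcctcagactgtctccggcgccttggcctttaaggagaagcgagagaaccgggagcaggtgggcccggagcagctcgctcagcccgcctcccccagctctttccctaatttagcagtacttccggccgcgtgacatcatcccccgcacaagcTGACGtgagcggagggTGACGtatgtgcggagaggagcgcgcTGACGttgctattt
Dlg4: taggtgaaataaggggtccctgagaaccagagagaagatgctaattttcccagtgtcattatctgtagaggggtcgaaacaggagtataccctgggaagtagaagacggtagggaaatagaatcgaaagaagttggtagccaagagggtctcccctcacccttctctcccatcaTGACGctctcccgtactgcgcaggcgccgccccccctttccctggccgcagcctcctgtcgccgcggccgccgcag
Camk2b: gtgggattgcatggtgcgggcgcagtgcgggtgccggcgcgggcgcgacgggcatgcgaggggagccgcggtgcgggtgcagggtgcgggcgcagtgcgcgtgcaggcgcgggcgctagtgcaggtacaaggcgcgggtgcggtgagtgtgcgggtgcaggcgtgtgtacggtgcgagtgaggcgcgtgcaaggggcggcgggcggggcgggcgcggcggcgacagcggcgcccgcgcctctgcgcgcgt
Dlg2: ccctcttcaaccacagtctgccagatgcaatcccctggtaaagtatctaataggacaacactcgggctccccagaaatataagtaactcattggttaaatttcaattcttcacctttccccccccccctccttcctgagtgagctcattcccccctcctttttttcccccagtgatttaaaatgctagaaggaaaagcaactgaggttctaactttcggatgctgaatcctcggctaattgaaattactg
The Homer1 window shown, at the first start of that gene, held 3 copies, at 56, 40 and 14 bases before the start. A count of 3 or more was reached by 0.688% of all windows. The window at the second Homer1 start held no copy. The Camk2b window held 44 CpG pairs at 78.4% G and C, and the Dlg2 window 3 CpG pairs at 45.2%, against medians of 6 and 52.4% over all windows. The Dlg4 window held 1 copy of the core and 14 CpG pairs. The genes with the largest rises thus had windows of very different base composition, and neither held the core.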

How the data were processed

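The authors deposited 1 log2 value per probe set for each of 9 Affymetrix mouse gene arrays, computed by RMA (oligo package), as the submitters' processing notes state; versions are not given in the sources used here. RMA corrects background, equalises the arrays' distributions and summarises probes by a robust fit, which pulls in folds of dim genes and can give equal values on several arrays. Array medians were 6.75 to 6.79, and arrays of 1 group correlated at 0.988 to 0.994. The number of arrays limits the precision.

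Of 41345 probe sets, 23521 had 1 gene symbol, 1814 several and 16010 none; 23328 matched the gene table of GRCm38.p6 by gene number. Genes above the array median in at least 3 arrays were tested (13012 of 22180). A limma model (3.58.1, R 4.3.3) of the 3 groups was fitted to all of them, tests two-sided, with Benjamini-Hochberg adjustment at 0.05. The test for levels outside both cultures used, for each gene, whichever of its 2 one-sided p-values was larger. The fit and this test were each tested on simulated data. The p-values measure the spread between the 3 arrays within each group, pooled over the 3 groups and moderated across genes by limma.

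The 9 genes and the gene lists were chosen with earlier results of these data known. Named from the lists were all paralogs, up to 4 called genes of each other list with the largest neuron to precursor difference, and the 5 genes most alike. Alternatives covered the filter, scaling, probe sets, variance model, replicate block and each array left out. Deviations from the group means of precursor and co-culture arrays of 1 number correlated across genes at 0.34, 0.30 and 0.16. For neurons these correlations were 0.0043, 0.13 and -0.15 with precursors, and -0.0051, 0.27 and 0.17 with the co-culture. Arrays of different numbers were not compared in this way, so whether the numbers pair any of the groups cannot be told.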

Additional observations from a re-analysis of the deposited data

How the results depend on the processing

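Under every alternative run, all 9 genes stayed called higher in neurons than in precursors and lower in the co-culture than in neurons. Between co-culture and precursors 9 of 171 values changed side of the threshold, all of Shank3 or Shank2, and the count of genes called higher ranged from 6 to 8 against 7. With the replicate block 9, 7 and 9 genes were called in the 3 comparisons, and the block changed no call of the 9 genes.

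The median position of the co-culture over the 9 genes, 24.5%, was 22.0% with cyclic loess and 19.1% with arrays centred on the median of the tested genes, against 21.5% and 16.7% over all genes that meet the same rule. It was 23.3% to 25.1% with single arrays left out. That centring, chosen after seeing the data, moved the median difference between co-culture and neurons over all genes from 0.03 to -0.08, and the share of calls that were higher from 58.9% to 41.4% there and from 97.6% to 87.6% for co-culture minus precursors.

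Of 1018 values of other genes reported, 986 kept direction and call, 20 lost and 4 gained the call, and 8 changed sign, all of them differences between neurons and precursors that passed the threshold neither before nor after. With single arrays left out these ranged from -0.0044 to 0.027 for Baiap2, from -0.020 to 0.097 for Cx3cr1 and from -0.023 to 0.019 for Tubb3, and Tubb3 was at 0.076 with cyclic loess and 0.043 with arrays centred on the median of the tested genes. Differences of dim genes may be understated, since RMA pulls in their folds. No detection calls were used.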
